A study of Homo sapiens with 44 samples.

Results

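Heat shock protein genes were followed in ZR-75-1 cells across a hormone time course. They were chosen by symbol, as annotated genes whose name begins with HSPA to HSPH or with DNAJA to DNAJC and a number, and each gene was read from its brightest transcript cluster over the 44 arrays. The rule found 22 genes on 35 transcript clusters, of 14884 named genes and 53617 clusters on the arrays. Of these, 17 belong to the classes of heat shock protein proper: 10 to HSP70, 3 to HSP110, 3 to the small heat shock proteins and 1, HSPD1, to the chaperonins. The HSP70 class includes HSPA7, a pseudogene. The other 5 match the symbol rule but are not in these classes: HSPG2 encodes perlecan, a matrix proteoglycan, HSPBAP1 encodes a protein that binds HSPB1, HSPB2-C11orf52 is a readthrough transcript, and DNAJC9-AS1 and DNAJC27-AS1 are antisense transcripts. No protein-coding DNAJ gene was among the 22, so the DNAJ cochaperones are not analysed here, and the members are referred to as heat shock protein genes. The classes are also incomplete. HSPA5, HSPA8 and HSPA13 of HSP70, the chaperonin HSPE1 and the small heat shock proteins HSPB2, HSPB6, HSPB7 and HSPB9 were not among the 22 either. HSP90 genes do not match the symbol rule. A filter on low values was passed by 21 members, and HSPB3 was under the 30th percentile of the array on all 44 arrays.

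ZR-75-1 is an established human breast cancer line with estrogen and progesterone receptors, and a single line at 1 passage was used. All cells were grown in hormone stripped medium for 72 h, either with 10 nM estradiol (estrogen pretreated, E2p) or with ethanol vehicle (unprimed). The E2p cells then received an overlay onto the medium already present: vehicle (V) lasted 0, 4, 8 or 16 h, and progesterone (P4) and the synthetic progestin medroxyprogesterone acetate (MPA), each at 10 nM, lasted 4, 8 or 16 h. The remaining overlays, all of 16 h, were 10 nM fresh E2 by itself, with P4 (E2+P4) and with MPA (E2+MPA). Unprimed cells had a vehicle overlay for 16 h. Starts were staggered so that all RNA was isolated together, and the labels describe the ethanol of the 0 h group in other terms than that of the later vehicle groups. Of the 14 groups, 13 had 3 arrays and E2p E2+P4 16 h had 5. Replicates are numbered wells of 1 line, and since no label says that they were independent cultures, p-values reflect well-to-well spread that could be technical only. Levels are log2 values from RMA, and array medians lay between 5.52 and 5.67. Luminal genes marked the cells, with PGR at a mean of 10.29, ESR1 at 8.59 and all 8 measured markers above the 30th percentile on all arrays. Of 9 measured markers of fibroblasts, immune, endothelial and basal cells, VIM, CD68, VWF, KDR and KRT5 were above it on all 44 arrays, CD14, PECAM1 and KRT14 on 40 to 43, and DCN on 0. Their means ran from 2.70 for DCN to 8.37 for CD68, and their part in the results was not tested.

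Heat shock proteins are molecular chaperones. HSP70 proteins bind exposed hydrophobic stretches of unfolded clients and release them in a cycle driven by ATP. HSP110 proteins are distant relatives of HSP70 that exchange its bound nucleotide and so restart the cycle. Small heat shock proteins hold unfolding proteins without using ATP, and HSPD1 forms the folding chamber of mitochondria. Steroid receptors, the progesterone receptor among them, are held ready for hormone by HSP70 and HSP90 with cochaperones such as STIP1. FKBP5 is another cochaperone found in these complexes. The transcription factor HSF1 induces many of these genes through heat shock elements, inverted repeats of the letters GAA.

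The promoters of 4 genes are shown because HSPA1A, HSPA1B, HSPH1 and HSPA2 had the widest ranges of group means over the 14 groups. The bases are those directly upstream of the transcription start in RefSeq (GRCh38.p14), 5′ to 3′ on the strand of the gene. Capitals mark GAANNTTC, a single inverted repeat of GAA, or a CCAAT box (CCAAT or, on the opposite strand, ATTGG). Longer heat shock elements, made of further repeats, were not searched for. They lie at chr6:31815293-31815542 for HSPA1A and chr6:31827488-31827737 for HSPA1B, both on the forward strand. HSPH1 is at chr13:31162389-31162638 on the reverse strand and HSPA2 at chr14:64540491-64540740 on the forward strand.
HSPA1A: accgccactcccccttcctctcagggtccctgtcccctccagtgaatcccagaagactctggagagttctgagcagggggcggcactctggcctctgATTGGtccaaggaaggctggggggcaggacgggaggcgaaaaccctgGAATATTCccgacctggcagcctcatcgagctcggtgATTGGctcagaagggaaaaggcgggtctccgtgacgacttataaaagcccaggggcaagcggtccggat
HSPA1B: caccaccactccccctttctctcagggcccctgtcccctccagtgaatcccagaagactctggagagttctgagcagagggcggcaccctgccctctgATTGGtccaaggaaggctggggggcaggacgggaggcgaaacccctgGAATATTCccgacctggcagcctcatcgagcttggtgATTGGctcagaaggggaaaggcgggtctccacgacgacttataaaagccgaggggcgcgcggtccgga
HSPH1: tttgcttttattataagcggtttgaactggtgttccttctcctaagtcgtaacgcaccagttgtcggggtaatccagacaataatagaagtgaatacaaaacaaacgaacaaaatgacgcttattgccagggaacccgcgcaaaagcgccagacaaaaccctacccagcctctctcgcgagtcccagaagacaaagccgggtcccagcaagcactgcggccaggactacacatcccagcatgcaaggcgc
HSPA2: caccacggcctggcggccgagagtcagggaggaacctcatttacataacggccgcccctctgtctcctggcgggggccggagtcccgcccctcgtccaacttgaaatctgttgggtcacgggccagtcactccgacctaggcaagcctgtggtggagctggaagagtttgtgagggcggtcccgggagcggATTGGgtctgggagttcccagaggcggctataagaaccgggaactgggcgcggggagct
HSPA1A and HSPA1B encode nearly the same protein from neighbouring loci, and their windows were identical at 277 of 299 aligned bases (92.6%). Each held 1 GAATATTC, at position -106 of HSPA1A and -105 of HSPA1B, and 2 CCAAT boxes. The HSPA1A window shares 241 bases of the genome with that of HSPA1L, which is transcribed the other way. GAANNTTC, which reads the same on both strands, was found in 7 of the 23 windows of the 18 members that had any. It was in 6.77% of all 35116 windows of the RefSeq table, which also span the first bases of the transcript. These windows belonged to HSPA1A, HSPA1B, HSPA1L, HSPA6, HSPB1, HSPB8 and HSPD1, and the match of HSPA1L is that of HSPA1A in the shared bases. The other orientation of the repeat, TTCNNGAA, was in 5 of the 23 and 7.74% of all windows, and a CCAAT box was in 7 of the 23 and 34.6%. HSPH1 held none of these letters in its window, and HSPA2 held 1 CCAAT box at -59. The letters AGAACA or TGTTCT, one arm of the sequence that progesterone and glucocorticoid receptors bind, occurred in 2 of the 23 windows (DNAJC9-AS1 and HSPA4) and in 14.8% of all windows. These are matches of letters, not sites shown to be bound.

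Levels between genes cannot be ordered on these arrays, so each gene is set against itself. HSPA2, HSPA1B and HSPA1A had the widest range of group means, of 2.20, 1.94 and 1.93 on the log2 scale, followed by HSPH1 with 1.44 and HSPB8 with 1.11. Over the 44 arrays HSPA1A and HSPA1B correlated at 0.998 and never differed by more than 0.13, so probes for near-identical transcripts may not separate them and counts of called members are also given with the pair taken as 1 gene. HSPA1A correlated at 0.94 with HSPH1, at 0.70 with HSPA1L and at 0.07 with HSPA2. These correlations are descriptions over arrays that share groups.

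**Figure D1:**
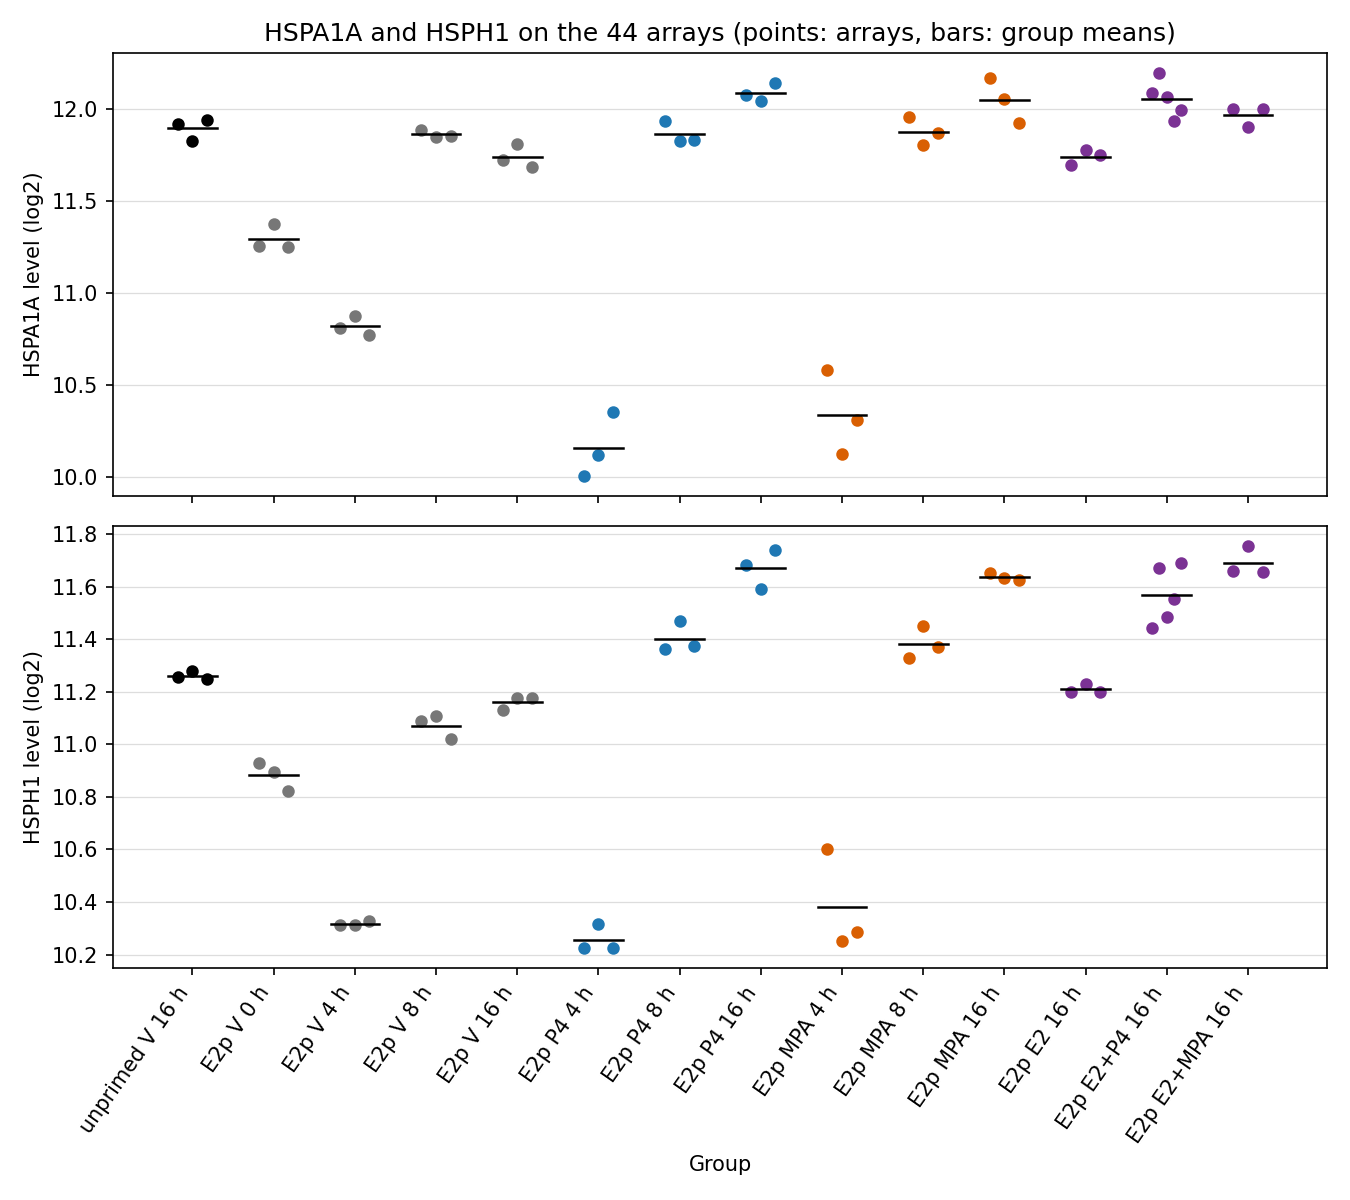
Level of HSPA1A (upper) and HSPH1 (lower) on the log2 scale in the 14 groups, where points are arrays and bars are group means (n = 3, or 5 for E2p E2+P4 16 h). Both genes were lowest in the 4 h groups, with HSPA1A at 10.01 to 10.35 after P4 and 10.77 to 10.88 after vehicle.

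HSPA1A, HSPA1B and HSPH1 differed between the times of vehicle overlay, whereas HSPA6, HSPB1 and HSPB8 were not called (adjusted p = 0.784, 0.871 and 0.423). The ethanol of the 0 h group is labelled at another dilution than that of the later groups, so that in each difference from 0 h the time and the ethanol cannot be told apart. HSPA1A, the main stress-inducible HSP70, was at 11.25, 11.38 and 11.25 on the 3 arrays without an overlay time (0 h). It was at 10.81, 10.88 and 10.77 after 4 h of vehicle, at 11.88, 11.85 and 11.85 after 8 h and at 11.72, 11.81 and 11.69 after 16 h. No array of the 4, 8 or 16 h group overlapped with the 0 h group: HSPA1A fell by 0.47 ± 0.09 (SE) at 4 h (adjusted p = 0.00159) and was 0.57 ± 0.09 higher at 8 h and 0.45 ± 0.09 higher at 16 h (adjusted p = 1.45e-04 and 0.00361). HSPH1, the inducible HSP110, was at 10.93, 10.90 and 10.82 at 0 h and at 10.31, 10.31 and 10.33 after 4 h, a fall of 0.56 ± 0.07 (adjusted p = 6.32e-06). It then stood at 11.09, 11.11 and 11.02 at 8 h and at 11.13, 11.18 and 11.18 at 16 h, and the 16 h rise of 0.28 ± 0.07 passed the threshold (adjusted p = 0.0455), whereas the 8 h difference of 0.19 did not (adjusted p = 0.264). The dip and the later rise were thus seen on every array of both genes.

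Across the vehicle times, a moderated F-statistic called 4 of the 21 members at an adjusted p of at most 0.05, or 3 with HSPA1A and HSPA1B counted once, against a background of 1.94% of all 41374 tested clusters. With array weights the count was 9. They were HSPA1A (adjusted p = 1.27e-09), HSPH1 (1.34e-09), HSPA1B (1.37e-08) and HSPA4L (0.0375), an HSP110 first described in testis. Set against 0 h, HSPA1A, HSPA1B and HSPH1 were lower at 4 h and no member was higher (background 0.807% lower and 0.701% higher, 1.51% in all), or 2 genes with the pair taken once. HSPA1A and HSPA1B were higher at 8 h (background 0.657% higher and 0.761% lower, 1.42% in all), and all 3 were higher at 16 h (background 0.428% higher and 0.602% lower, 1.03% in all), or 1 and 2 genes with the pair taken once. HSPA2, an HSP70 known for its part in sperm formation, was at 7.95, 7.73 and 7.70 after 8 h of vehicle and at 7.39, 6.91 and 7.19 at 0 h. That difference of 0.63 ± 0.17 missed the threshold (adjusted p = 0.0566), although the groups did not overlap. HSPA4, HSPA9 and HSPD1 lay between -0.18 and 0.07 from 0 h at every vehicle time and were not called.

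P4 and MPA were then each set against the vehicle of the same time, so the shifts above are taken out and both progestins share the 3 vehicle arrays. At 4 h, HSPA1A was at 10.01, 10.12 and 10.35 with P4 and at 10.58, 10.13 and 10.31 with MPA, all below the lowest vehicle array at 10.77. It fell by 0.66 ± 0.09 with P4 (adjusted p = 9.24e-07) and by 0.48 ± 0.09 with MPA (adjusted p = 1.79e-04), and HSPA1B by 0.74 ± 0.09 and 0.57 ± 0.09. At 8 h the 3 treatments overlapped, with group means of 11.86 ± 0.06 (SD, n = 3) for P4, 11.88 ± 0.08 for MPA and 11.86 ± 0.02 for vehicle. At 16 h HSPA1A was at 12.08, 12.04 and 12.14 with P4 and at 12.17, 12.06 and 11.92 with MPA, above all 3 vehicle arrays. It was 0.35 ± 0.09 higher with P4 (adjusted p = 0.00424) and 0.31 ± 0.09 higher with MPA (adjusted p = 0.0108), and the MPA difference was 0.25 and not called without MPA 16 h replicate 1. HSPA1B was 0.36 and 0.32 higher, and its MPA call was lost without MPA 16 h replicate 1 or 2 or vehicle 16 h replicate 3 (0.27 to 0.28). The sign of the difference thus turned between 4 and 16 h. In fits on the compared arrays alone, which take the spread from few arrays, HSPA1A was not called at 4 or 16 h for either progestin.

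HSPH1 was not called at 4 h. Its arrays stood at 10.22, 10.32 and 10.23 with P4 and at 10.60, 10.25 and 10.29 with MPA, around the vehicle arrays, and the differences were -0.06 (95% interval -0.21 to 0.08) and 0.06 (-0.08 to 0.21). MPA 4 h replicate 1 was the highest of its group for HSPA1A and for HSPH1. At 8 h HSPH1 was at 11.36, 11.47 and 11.37 with P4 and at 11.33, 11.45 and 11.37 with MPA, above every vehicle array, with rises of 0.33 ± 0.07 (adjusted p = 9.29e-04) and 0.31 ± 0.07 (adjusted p = 0.0017). At 16 h the P4 arrays were at 11.68, 11.59 and 11.74 and the MPA arrays at 11.65, 11.63 and 11.63, rises of 0.51 ± 0.07 (1.42-fold, adjusted p = 1.29e-06) and 0.48 ± 0.07 (1.39-fold, adjusted p = 4.47e-06). The 8 h call with MPA was lost in a fit on the compared arrays alone (adjusted p = 0.059). The group means of HSPH1 rose from 8 to 16 h with both progestins and lay apart from vehicle by more than the spread of the arrays.

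HSPA2 showed the largest difference of any member, and it was present at each time. After P4 it was at 8.35, 8.58 and 8.65 at 4 h, at 9.28, 9.43 and 9.39 at 8 h and at 8.60, 8.66 and 8.65 at 16 h. The vehicle arrays were at 7.23, 7.28 and 7.01, at 7.95, 7.73 and 7.70, and at 7.36, 7.18 and 7.14 at the same times. No P4 array overlapped with vehicle, and HSPA2 rose by 1.36, 1.57 and 1.41 (2.56-, 2.97- and 2.66-fold, SE 0.17, adjusted p = 4.21e-07, 1.39e-08 and 1.08e-07). MPA gave 8.88, 8.31 and 8.46 at 4 h, 9.14, 9.10 and 9.41 at 8 h and 8.57, 8.54 and 8.30 at 16 h, with rises of 1.38, 1.42 and 1.24. HSPA2 stayed called under each alternative in these 6 comparisons.

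**Figure D2:**
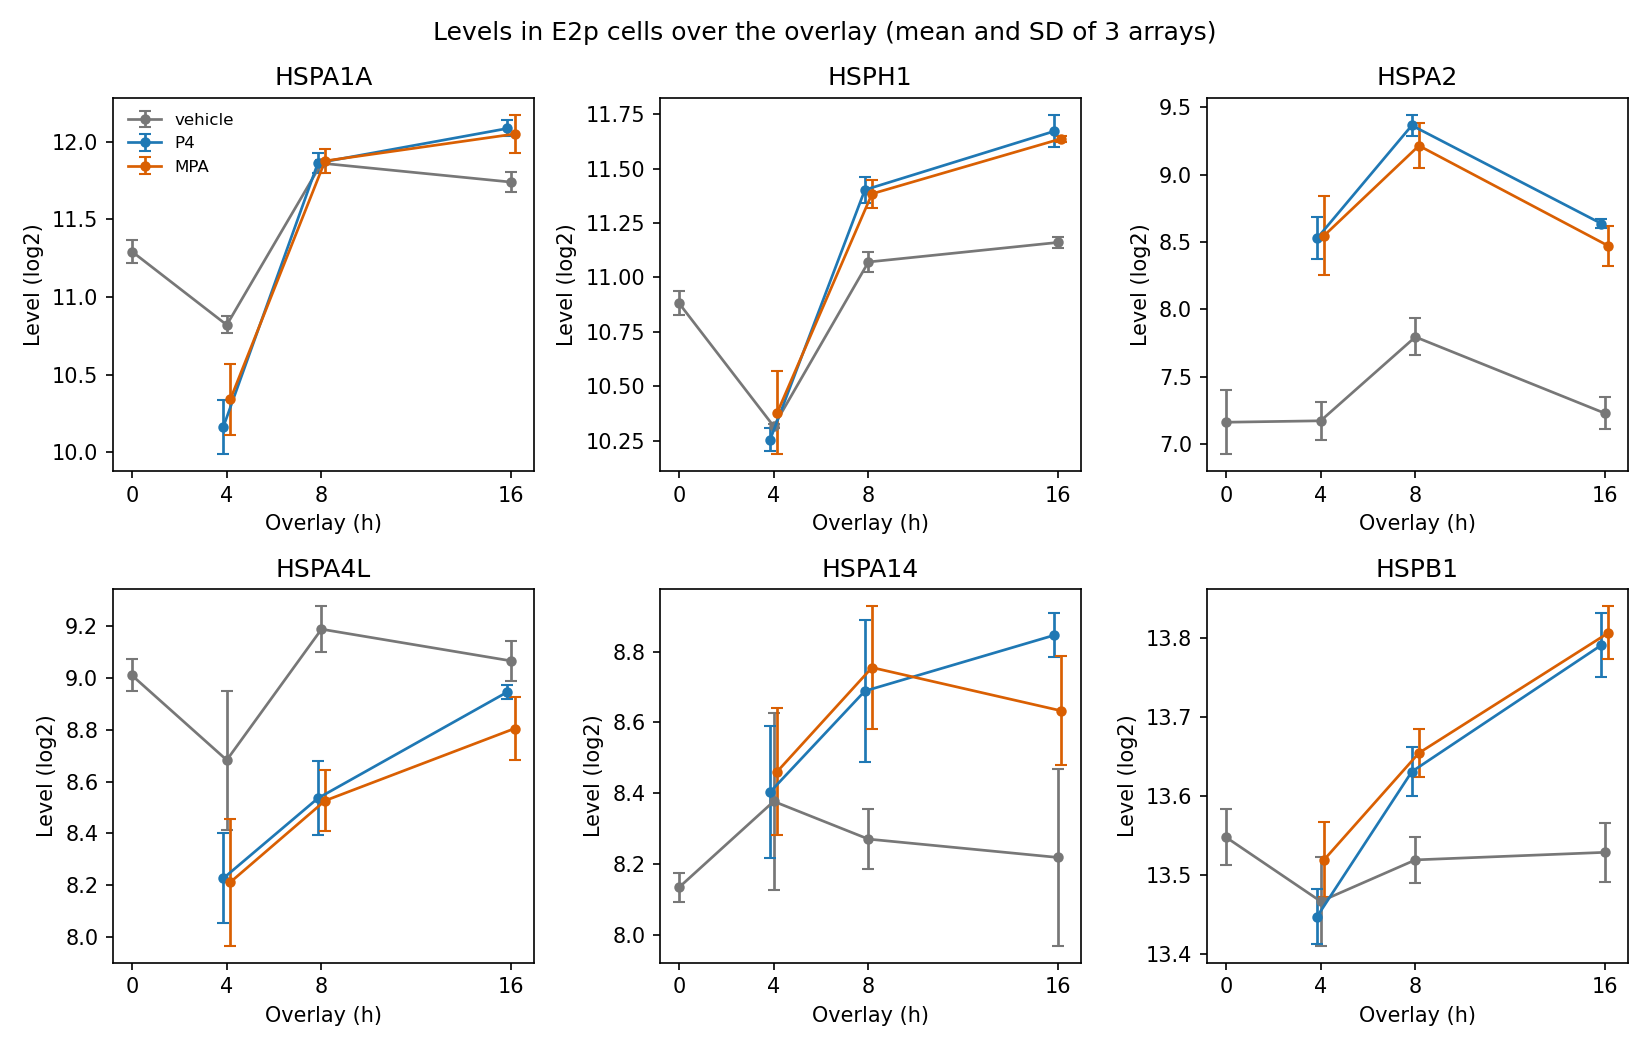
Levels on the log2 scale (mean and SD of 3 arrays) of HSPA1A, HSPH1, HSPA2, HSPA4L, HSPA14 and HSPB1 in E2p cells against hours of overlay with vehicle (grey), P4 (blue) or MPA (orange), each panel with its own axis. HSPA2 lies above vehicle at all times, HSPA4L below it, and HSPA1A crosses from below at 4 h to above at 16 h.

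HSPA4L went down with both progestins. At 8 h it was at 8.38, 8.66 and 8.56 with P4 and at 8.41, 8.52 and 8.65 with MPA, all below the vehicle arrays at 9.16, 9.28 and 9.11. It fell by 0.65 ± 0.11 with P4 (adjusted p = 4.27e-05) and by 0.66 ± 0.11 with MPA (adjusted p = 3.26e-05). At 4 h it fell by 0.46 and 0.47, the vehicle arrays were spread from 8.38 to 8.89, and P4 replicate 2 lay within them. The 4 h calls were lost without vehicle 4 h replicate 3 (-0.35 for P4 and -0.37 for MPA), without P4 4 h replicate 3 (-0.37) and without MPA 4 h replicate 3 (-0.33), and both were lost in fits on the compared arrays alone (adjusted p = 0.376 and 0.470). At 16 h the differences were -0.12 and -0.26 and were not called.

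Other members moved later or less. HSPA14, a ribosome-associated HSP70, was at 8.79, 8.84 and 8.91 after 16 h of P4 and at 8.40, 8.32 and 7.93 after vehicle, a rise of 0.63 ± 0.13 (adjusted p = 5.19e-04). It also rose at 8 h (0.42 with P4, 0.48 with MPA) and at 16 h with MPA (0.41). The 8 h P4 call was lost without P4 8 h replicate 2 or 3 or vehicle 8 h replicate 2 or 3 (0.35 to 0.41), the 8 h MPA call without MPA 8 h replicate 2 (0.43), and the 16 h MPA call without MPA 16 h replicate 2 or 3 or vehicle 16 h replicate 3 (0.27 to 0.41). HSPB1, a small heat shock protein made in many tissues, was at 13.78, 13.76 and 13.84 with P4 and 13.77, 13.83 and 13.82 with MPA at 16 h, above vehicle at 13.57, 13.52 and 13.50. Its rises of 0.26 ± 0.05 and 0.28 ± 0.05 were called (adjusted p = 1.64e-04 and 7.52e-05), and no array overlapped with vehicle. HSPA9, the mitochondrial HSP70, rose by 0.23 ± 0.06 with P4 at 16 h (adjusted p = 0.0113) and was 0.12 higher with MPA, which was not called. HSPA12A, a distant HSP70 relative, fell at 8 h by 0.39 with P4 and 0.53 with MPA. Its P4 call was lost without P4 8 h replicate 2 or 3 (-0.38 and -0.36). In fits on the compared arrays alone the 16 h calls of HSPB1 with P4 and MPA (adjusted p = 0.129 and 0.172), of HSPA9 with P4 (0.177) and of HSPA14 with MPA (0.214) were lost, as was the 8 h call of HSPA14 with P4 (0.0695).

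Over all members, P4 after 4 h called 1 higher and 3 lower, where 4.55% of all clusters were higher and 3.35% lower (7.9% in all). After 8 h it called 3 higher and 2 lower beside 6.06% and 7.22% (13.3%), and after 16 h 7 higher and 0 lower beside 7.91% and 7.92% (15.8%). MPA after 4 h called 1 higher and 4 lower beside 4.16% and 4.12% (8.28%). After 8 h it called 3 of each beside 6.3% and 7.96% (14.3%), and after 16 h 6 higher and 0 lower beside 6.72% and 9.26% (16%). With HSPA1A and HSPA1B taken once, the calls numbered 3 at 4 h and 6 at 16 h for P4 and 4 and 5 for MPA. On the compared arrays alone they numbered 2 and 3 for P4 and 1 and 2 for MPA at these times, and with array weights P4 called 8 at 8 h and 11 at 16 h. The 7 members higher with P4 at 16 h were HSPA1A, HSPA1B, HSPA2, HSPA9, HSPA14, HSPH1 and HSPB1, or 5 of 10 tested HSP70 genes, 1 of 3 HSP110 genes, 1 of 2 small heat shock proteins and not HSPD1. The median log2 difference of the 21 members was 0.10 with P4 at 16 h, beside -0.01 over all clusters, and 0.08 beside 0.02 with MPA. At 4 h the medians were -0.06 beside -0.03 with P4 and 0.00 beside 0.00 with MPA. Of 13 genes listed as targets of heat shock factor, 7 were measured (HSPA1A, HSPA1B, HSPA4, HSPA4L, HSPH1, HSPB1 and HSPD1). With either progestin 3 of them were lower and 0 higher at 4 h, and 1 was higher and 1 lower at 8 h. At 16 h 4 were higher and 0 lower. With HSPA1A and HSPA1B taken once, the calls at 4 and 16 h were 2 and 3. HSPA6 and HSPB8, tested but not on that list, were not called with either progestin at 4, 8 or 16 h. The readthrough HSPB2-C11orf52 fell by 0.34 at 4 h and 0.36 at 8 h with MPA, and neither call was kept in each fit with 1 array left out (-0.28 to -0.36 at 4 h without MPA replicate 2 or 3 or vehicle replicate 2 or 3, and -0.34 at 8 h without MPA replicate 1 or vehicle replicate 3).

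**Figure D3:**
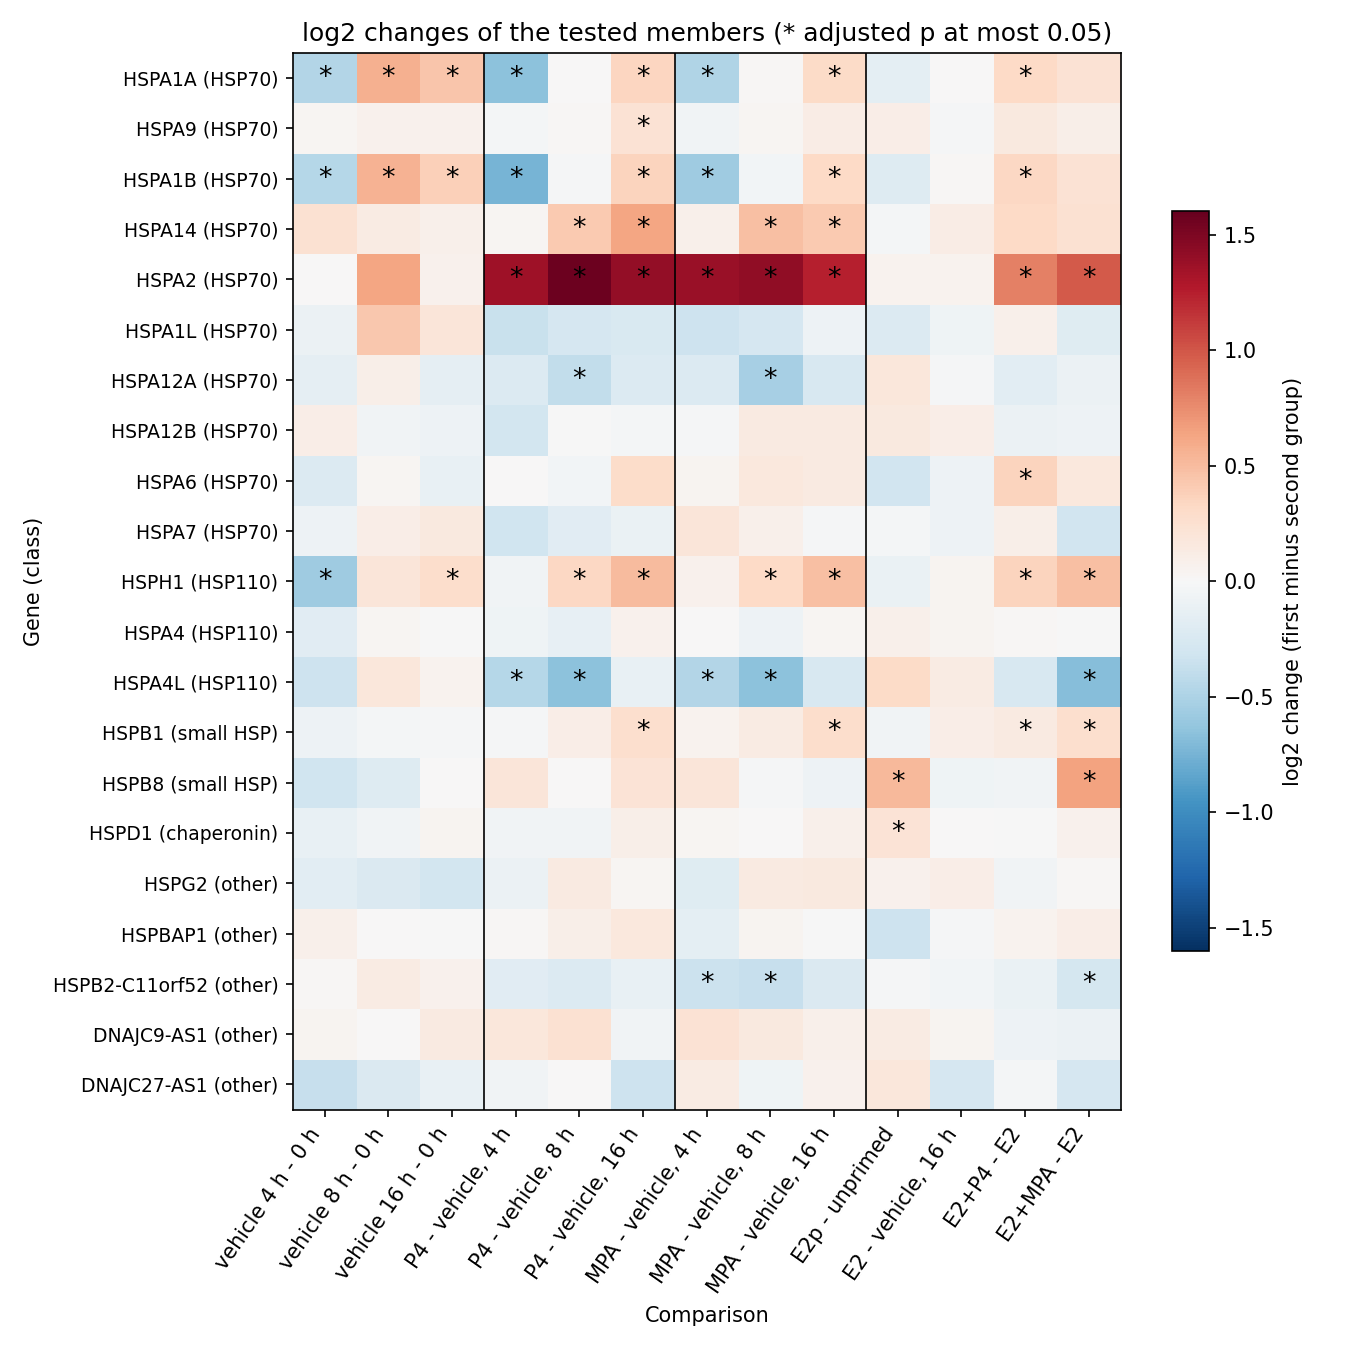
Heat map of log2 changes of the 21 tested members (rows, grouped by class and ordered by mean level) in 13 comparisons (columns), red for higher and blue for lower in the first group, with an asterisk at an adjusted p of at most 0.05. HSPA2 is the darkest row, with rises of 1.24 to 1.57 in the 6 progestin columns, and the column for fresh E2 has no asterisk.

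The change of the progestin effect between 4 and 16 h was tested directly. With P4 the effect was higher at 16 h by 1.10 ± 0.13 for HSPA1B, 1.01 ± 0.12 for HSPA1A, 0.60 ± 0.19 for HSPA14, 0.57 ± 0.10 for HSPH1 and 0.28 ± 0.07 for HSPB1 (adjusted p = 3.41e-07, 5.92e-07, 0.0422, 1.95e-04 and 0.0093). With MPA it was higher by 0.89 ± 0.13 for HSPA1B, 0.79 ± 0.12 for HSPA1A and 0.41 ± 0.10 for HSPH1 (adjusted p = 1.85e-05, 5.04e-05 and 0.0102). So 5 members were higher and 0 lower for P4 (background 3.43% and 3.28%, 6.71% in all), and 3 were higher and 0 lower for MPA (2.05% and 2.33%, 4.38% in all). With HSPA1A and HSPA1B taken once these were 4 and 2, and on the compared arrays alone 3 and 1. HSPA2 was not called in this test, with 95% intervals of -0.44 to 0.55 for P4 and -0.63 to 0.36 for MPA. The HSPH1 call for MPA was lost without MPA 4 h replicate 2 (0.35). The HSPA14 call for P4 was lost without any one of 7 arrays (P4 16 h replicates 1, 2 and 3, P4 4 h replicate 3, vehicle 16 h replicate 3 and vehicle 4 h replicates 2 and 3), with values of 0.46 to 0.63.

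MPA differs from P4 in structure by an added methyl and an added acetoxy group, and both were given at 10 nM for the same times. Over the 21 members and the mean of the 3 times, 0 differed between them (background 0.276%, 3 members at an unadjusted p under 0.05), and 0 differed at 4, 8 or 16 h taken singly (background 0.0145%, 0.00242% and 0.0121%; 3, 0 and 2 members at an unadjusted p under 0.05), with p-values adjusted over all 41374 clusters. For HSPA2 the difference of MPA from P4 was -0.10 (95% interval -0.30 to 0.10), for HSPA1A 0.05 (-0.05 to 0.16), for HSPH1 0.02 (-0.06 to 0.11), for HSPA4L -0.06 (-0.19 to 0.08) and for HSPB1 0.04 (-0.02 to 0.10). These intervals leave room for differences of that size in either direction. The members with an unadjusted p under 0.05 were HSPA12B (0.20), HSPB2-C11orf52 (-0.14) and the pseudogene HSPA7 (0.29), with adjusted p from 0.245 to 0.332.

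In the presence of fresh E2, 2 members differed between the progestins, and whether this departs from the comparison without fresh E2 was not tested. HSPB8, a small heat shock protein that works with BAG3 in autophagy, was at 6.89, 7.28 and 7.28 with E2+MPA and at 6.47, 6.42, 6.06, 6.63 and 6.67 with E2+P4, groups that did not overlap. It was 0.70 ± 0.12 higher with E2+MPA (adjusted p = 1.37e-04). HSPA4L was at 8.55, 8.41 and 8.58 with E2+MPA and at 8.84, 8.93, 9.05, 9.03 and 8.83 with E2+P4, lower by 0.42 ± 0.10 (adjusted p = 0.00638), and this call was lost without E2+MPA replicate 2 (-0.37). Here 1 member was higher and 1 lower, beside 2.66% and 3.42% of all clusters (6.08% in all). In a fit on these arrays alone neither was called.

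**Figure D4:**
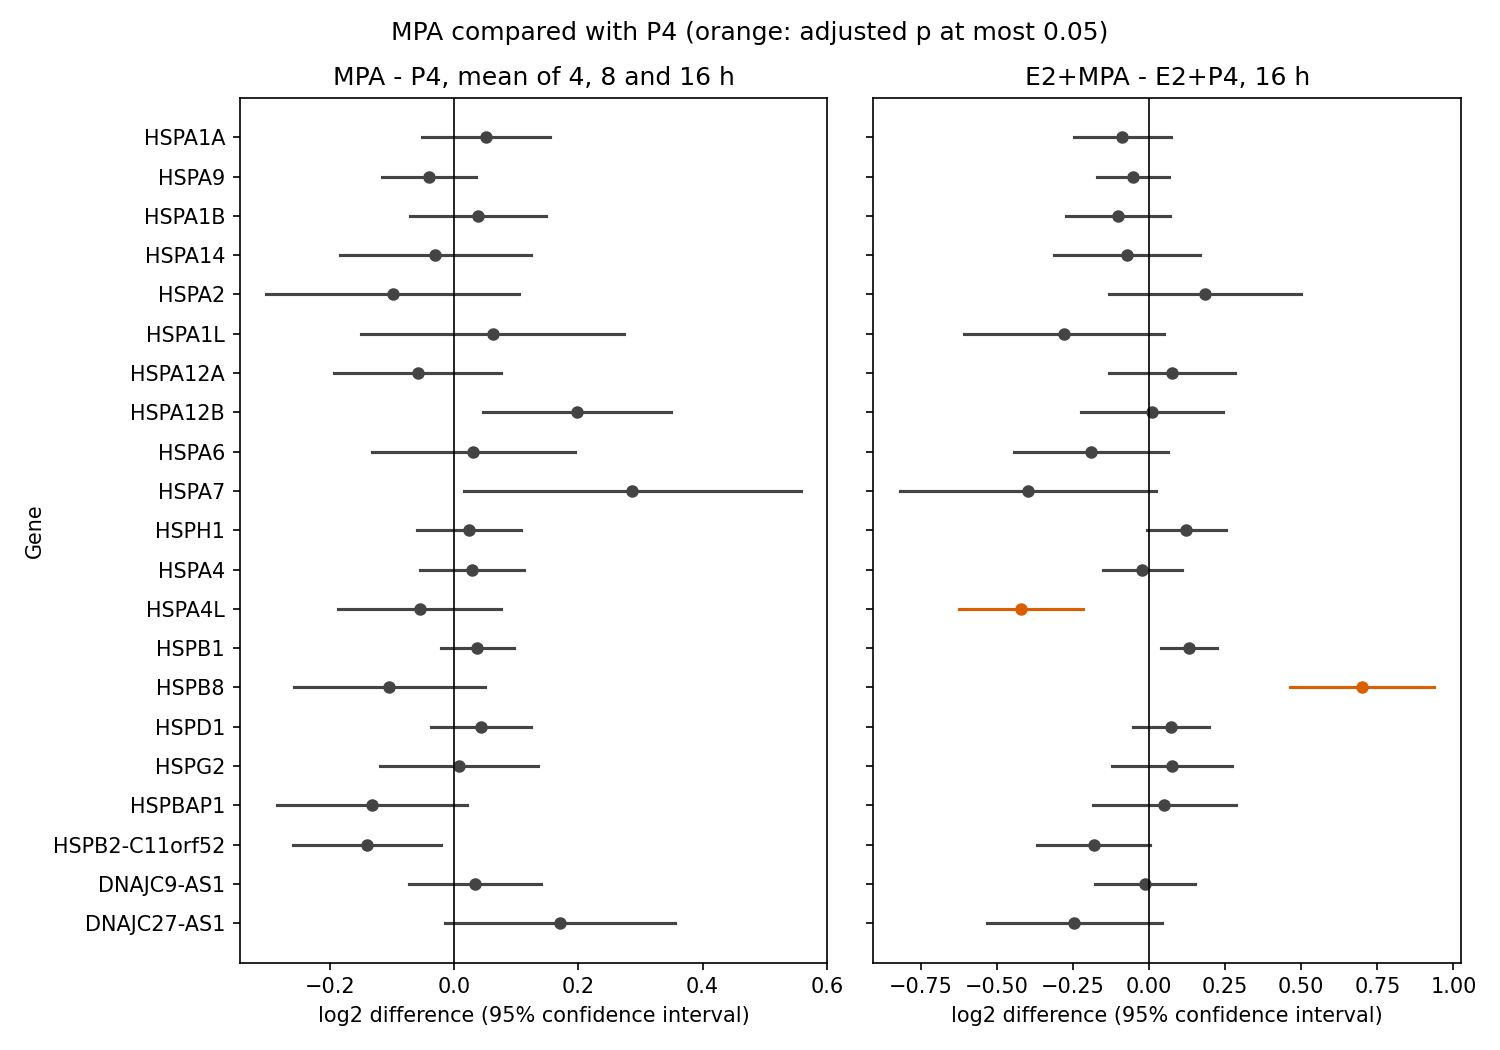
Difference of MPA from P4 on the log2 scale for the 21 tested members, as estimate and 95% confidence interval, averaged over 4, 8 and 16 h (left) and in the presence of fresh E2 at 16 h (right), with the call at an adjusted p of at most 0.05 in orange. None is orange on the left, and HSPB8 (0.70) and HSPA4L (-0.42) are on the right.

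Fresh E2 for 16 h, set against vehicle for 16 h in E2p cells, called 0 members (background 0.00483%), none had an unadjusted p under 0.05, and differences lay between -0.27 and 0.13. HSPA1A was at 11.70, 11.78 and 11.75 with E2 and HSPH1 at 11.20, 11.23 and 11.20, close to their vehicle arrays. P4 added to E2 called 6 members higher and 0 lower (background 5.95% and 7.92%, 13.9% in all), or 5 with HSPA1A and HSPA1B taken once. HSPA2 was at 7.84, 8.60, 7.71, 7.79 and 8.49 with E2+P4 and at 7.19, 7.34 and 7.32 with E2, a rise of 0.80 ± 0.15 (adjusted p = 2.36e-04), and E2+P4 replicates 2 and 5 stood apart from the other 3. Without either of them the rise was 0.67 or 0.70. HSPA1A was at 12.09, 12.20, 12.06, 11.93 and 12.00, a rise of 0.31 ± 0.08 (adjusted p = 0.00425), and HSPH1 at 11.44, 11.67, 11.49, 11.55 and 11.69, a rise of 0.36 ± 0.06 (adjusted p = 8.03e-05). HSPA1B (0.33), HSPB1 (0.14) and HSPA6 (0.36), a strictly inducible HSP70, were also called. The HSPA6 call was lost without E2 replicate 1 or 3 or E2+P4 replicate 2, 3, 4 or 5 (0.29 to 0.37), and the HSPB1 call without E2 replicate 1 or 3 or E2+P4 replicate 4 (0.12 to 0.13). In a fit on these 8 arrays alone HSPH1 was the only member called.

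MPA added to E2 called 4 members higher and 2 lower (background 8.04% and 11.8%, 19.8% in all). HSPA2 was at 8.54, 8.14 and 8.13, a rise of 0.99 ± 0.17 (adjusted p = 3.76e-05), HSPB8 rose by 0.65 ± 0.13 (adjusted p = 2.52e-04) and HSPH1, at 11.66, 11.76 and 11.66, rose by 0.48 ± 0.07 (adjusted p = 2.69e-06). HSPB1 was at 13.88, 13.91 and 13.92, above E2 at 13.58, 13.70 and 13.61, a rise of 0.27. HSPA4L fell by 0.68 ± 0.11 (adjusted p = 1.28e-05) and HSPB2-C11orf52 by 0.29, a call that was lost without any one of the 6 arrays (-0.24 to -0.32). HSPA1A was 0.23 ± 0.09 higher and not called (adjusted p = 0.067). Whether fresh E2 changed the progestin effect was tested as a difference of differences, and 0 members were called for P4 (background 0.00967%, 1 member at an unadjusted p under 0.05) and 0 for MPA (0.234%, 2 members), or 1 with array weights. The estimate for HSPA2 with P4 was -0.61 (95% interval -1.08 to -0.13, adjusted p = 0.724) and for HSPB8 with MPA 0.72 (0.35 to 1.10, adjusted p = 0.0922).

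Estrogen pretreatment itself, E2p against unprimed cells at 16 h of vehicle, called 2 members higher and 0 lower (background 2.55% and 4.95%, 7.5% in all), against 0 on the compared arrays alone and 4 with array weights. HSPB8 was at 6.65, 6.48 and 6.57 in E2p cells and at 5.91, 6.09 and 6.15 in unprimed cells, a rise of 0.52 ± 0.13 (adjusted p = 0.00772). HSPD1 was at 10.72, 10.79 and 10.62 and at 10.49, 10.57 and 10.43, a rise of 0.21 ± 0.07 (adjusted p = 0.0498). Neither pair of groups overlapped, yet the HSPB8 call was lost without unprimed replicate 1 (0.45), and the HSPD1 call without unprimed replicate 1 or 3 or E2p vehicle replicate 1 or 2 (0.17 to 0.21). HSPA1A was at 11.92, 11.83 and 11.94 in unprimed cells, 0.15 above E2p cells, and HSPH1 at 11.26, 11.28 and 11.25, 0.10 above, and neither difference was called (adjusted p = 0.355 and 0.483). HSPA2 stood at 7.09, 7.22 and 7.21 without priming, within the range of the E2p vehicle groups at 0, 4 and 16 h. For HSPB8 the E2p vehicle groups at 0, 4 and 8 h had means of 6.56, 6.25 and 6.36, beside 6.05 in unprimed cells. The 4 and 8 h groups thus lay nearer to unprimed cells than the 16 h group used in the comparison.

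Cochaperones and regulators of the same machinery were read from a list of 33, of which 19 were measured. FKBP5, a cochaperone of steroid receptor complexes with HSP90, rose with P4 by 1.53 ± 0.14, 1.67 ± 0.14 and 2.32 ± 0.14 at 4, 8 and 16 h. BAG3, the nucleotide exchange factor that links HSP70 to HSPB8, was at group means of 10.30, 10.50 and 10.25 with P4 and 9.24, 9.40 and 9.48 with vehicle. It rose by 1.06 ± 0.08, 1.10 ± 0.08 and 0.77 ± 0.08 with P4 and by 1.17, 1.01 and 0.75 with MPA, the opposite direction to HSPA1A at 4 h. BAG5, another exchange factor, rose by 0.24, 0.47 and 0.42 with P4, whereas BAG4 fell by 0.39 and 0.28 at 8 and 16 h and CLPB, a mitochondrial disaggregase, by 0.33 at 8 h. HYOU1, the HSP110 of the endoplasmic reticulum, and CDC37, which brings kinases to HSP90, rose by 0.26 and 0.28 with P4 at 16 h. P4 for 4 h called 3 of the 19 higher and 0 lower (7.9% of all clusters in either direction), P4 for 8 h called 3 higher and 2 lower (13.3%), and P4 for 16 h called 5 higher and 1 lower (15.8%). For MPA in the same order the counts were 3 higher and 1 lower (8.28%), 4 higher and 1 lower (14.3%), and again 4 higher and 1 lower (16%). With MPA, BAG1 fell by 0.32 at 16 h and CHORDC1 rose by 0.39 at 8 h.

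Some of the list also differed from 0 h in the later vehicle groups, where the time and the labelled ethanol cannot be told apart. CHORDC1, a cochaperone of HSP90, was at a group mean of 6.34 at 0 h and 0.81, 1.01 and 1.29 higher at 4, 8 and 16 h (adjusted p of the F-statistic 5.28e-08). This course is that of the cluster named CHORDC1 only. A brighter cluster named CHORDC1P4 followed HSPH1, which fell at 4 h (r = 0.991 over the 14 group means). BAG3 fell by 0.56, 0.40 and 0.32 at the same times, and FKBP5 by 0.59 at 16 h. STIP1, which bridges HSP70 and HSP90, had group means of 8.60, 8.33, 8.86 and 8.81 at 0, 4, 8 and 16 h and was called by the F-statistic (adjusted p = 5.04e-04). Estrogen pretreatment lowered BAG3 by 0.43 (adjusted p = 3.33e-04) and raised FKBP5 by 0.49. E2+P4 against E2 raised FKBP5 by 1.66, BAG3 by 0.34, HYOU1 by 0.20 and BAG5 by 0.19. E2+MPA against E2 raised FKBP5 by 1.78, BAG3 by 0.54, CHORDC1 by 0.49 and BAG5 by 0.36 and lowered BAG4 by 0.42, BAG1 by 0.38 and HSCB, a cochaperone of iron-sulfur cluster assembly, by 0.28. In the progestin effect at 16 h against 4 h, FKBP5 was higher by 0.79 with P4 and 1.12 with MPA, HYOU1 by 0.41 with P4, and BAG3 fell by 0.42 with MPA. HYOU1 was 0.22 lower with E2+MPA than with E2+P4.

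Among 13465 other named genes, those whose 14 group means correlated best with HSPA1A were HSPA1B (Pearson r = 0.999), STIP1 (0.986), RNGTT (0.967), CHORDC1P4 (0.965) and CCDC117 (0.956). For HSPH1 they were CHORDC1P4 (0.991), HEATR3 (0.986), ATP13A2 (0.968), STIP1 (0.959) and CUL1 (0.955). CHORDC1P4 carries the name of a pseudogene of CHORDC1 and its group means ranged over 1.78, close to the range of HSPA1A. The cluster named CHORDC1 took another course over the vehicle times, and the reason was not tested. STIP1 and CHORDC1P4 were on both lists, and the range of STIP1 was smaller, at 0.84. The group means share arrays across all genes, and the correlations are given as a description.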

How the data were processed

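ZR-75-1 RNA was labelled with biotin and read on 44 Affymetrix Gene ST arrays. The authors processed the scans with RMA and deposited log2 values, 1 per transcript cluster and array, and quantile normalization in RMA gives all arrays similar distributions, so a shift shared by all genes cannot be seen. The labels name the Gene 1.0 ST design, but identifiers matched the Gene 2.0 ST annotation, from which names were taken. Unnamed clusters (37519 of 53617) were tested but not described. All columns matched a sample. Clusters above the 30th percentile of their array (4.47 to 4.60) on at least 3 arrays were kept, which left 41374. Cell means of the 14 groups were fitted with limma 3.58.1 in R 4.3.3 (30 residual degrees of freedom), and moderated two-sided statistics were adjusted over all kept clusters by Benjamini-Hochberg, with a call at an adjusted p of at most 0.05. Every adjusted p comes from this fit, except those given for fits on the compared arrays alone. Errors of differences are SE and intervals cover 95%. The number of arrays limits the precision.

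The members, classes, lists and rule for named genes were chosen with earlier results of these data known. The rule took HSPA1A and HSPH1, up to 6 called members with the largest change in each direction of a comparison (6 smallest p for the vehicle times), the 5 members with the widest range of group means, the member of highest mean in each class, the 5 best correlated genes and up to 3 partner genes in each direction. Alternatives were no filter or a filter at the 50th percentile, array weights, the interquartile range as a covariate, a replicate block, the compared arrays alone, the mean of all clusters of a gene, an adjusted p of at most 1e-04 for the P4 comparisons, and each array left out. Promoter letters were searched in RefSeq windows (GRCh38.p14).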

Additional observations from a re-analysis of the deposited data

Results flagged for a closer look

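In the group of 5 arrays given E2+P4 for 16 h, Dixon's criterion marked a different array for each of 2 members. These were DNAJC27-AS1 at 5.19 on replicate 5, the highest of the group, and HSPG2 at 7.67 on replicate 3, also the highest. Neither is a chaperone gene, and chance marks a small share of such groups at this criterion.

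By a test of the difference itself, the effect differed between 4 and 16 h for 5 members with P4 and 3 with MPA. Other members named in the report, such as HSPA2, were not called. For P4 the differences were 0.60 for HSPA14, 1.01 for HSPA1A, 1.10 for HSPA1B, 0.28 for HSPB1 and 0.57 for HSPH1 on the log2 scale. For MPA they were 0.79 for HSPA1A, 0.89 for HSPA1B and 0.41 for HSPH1. HSPA1A and HSPA1B share nearly all of their sequence and are not independent.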

How the results depend on the processing

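Of 122 counts of called members recomputed under other settings, 104 stayed within 1.5 times of the count reported and 18 did not. Single-gene results were recomputed only for the members called in a comparison and for HSPA1A and HSPH1. Of these, 994 kept their side of the threshold and 104 kept the direction but were no longer called. Another 2 passed the threshold that had not (HSPA1A for E2+MPA against E2, with the filter at the 50th percentile and with array weights). Among results called in either fit, 0 changed direction. For results called in neither fit, the direction was not compared. With array weights, whose estimation stopped before its convergence tolerance was reached, calls went from 4 to 9 over the vehicle times, from 5 to 8 for P4 at 8 h, from 7 to 11 for P4 at 16 h, from 2 to 4 for priming and from 0 to 1 for the MPA effect with against without fresh E2. The last was also 1 with the interquartile range as a covariate, and priming gave 1 without a filter. Fits on the compared arrays alone gave 2 calls for P4 at 4 h, 3 for P4 at 16 h, 1 for MPA at 4 h, 2 for MPA at 16 h, 3 and 1 for the P4 and MPA effect at 16 h against 4 h, 0 for priming, 1 for E2+P4 against E2 and 0 for E2+MPA against E2+P4. An adjusted p of at most 1e-04 left 2 for P4 at 8 h and 2 at 16 h. The cause was not tested beyond the construction of each setting, the fits on compared arrays having fewer arrays.

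With 1 array left out, counts ranged from 3 to 4 for the vehicle times, 3 to 4 for P4 at 4 h, 3 to 5 at 8 h (3 without P4 8 h replicate 2 or 3) and 7 to 8 at 16 h. For MPA they ranged from 3 to 5 at 4 h (3 without MPA 4 h replicate 3 or vehicle 4 h replicate 3), 5 to 6 at 8 h and 4 to 6 at 16 h. They ranged from 4 to 6 and 2 to 4 for the P4 and MPA effect at 16 h against 4 h, 0 to 2 for priming (0 without unprimed replicate 1), 4 to 7 for E2+P4, 5 for E2+MPA and 1 to 2 for E2+MPA against E2+P4 (1 without E2+MPA replicate 2). They were 0 for E2, for MPA against P4 and for the P4 effect with against without fresh E2, and 0 to 1 for the MPA effect with against without fresh E2 (1 without E2 replicate 2 or E2+MPA replicate 1).

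Same-numbered arrays had every correlation of their deviations over 0.1 in 1 of 11 comparisons of 2 groups (E2+MPA against E2+P4, 0.11 to 0.40). In the other comparisons at least 1 correlation was not over 0.1, and single values ran from -0.46 (MPA against vehicle at 4 h) to 0.27 (E2+MPA against E2). With the replicate number as a block, calls were 4 for P4 at 4 h, 7 for P4 at 16 h, 4 for E2+P4 against E2 and 2 for E2+MPA against E2+P4. The block moved no count by over 1.5 times but ended the calls of HSPA14 for P4 at 16 h against 4 h, HSPA6 and HSPB1 for E2+P4 and HSPB2-C11orf52 for E2+MPA. Replicate numbers 4 and 5 occurred only in E2+P4, so with the block those arrays no longer informed the E2+P4 comparisons. The calls of HSPA6 and HSPB1 were thus lost with fewer arrays as well as with the block.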
